A study of Mus musculus with 12 samples.

Results

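The libraries described here are from LK cells of wild-type (WT) mice, the Lin-cKit+ fraction of bone marrow, which lacks the surface antigens of mature blood lineages and carries the receptor tyrosine kinase *Kit*. The members are 3 of the 12 RNA-Seq libraries of the series, WT_1, WT_2, and WT_3, each made from the cells of 1 wild-type C57BL/6 mouse at 12 months of age, and they were chosen by the genotype in the sample labels alone. The other 9 libraries come from mice with an *Asxl1* truncation transgene, a heterozygous *Kdm6b* deletion, or both, and were not analysed here. LK cells were taken from marrow with magnetic beads, first by depletion of lineage-positive cells and then by selection for *Kit*, so that each library is a mixture of progenitors at many stages and not a sorted cell type. The labels do not say whether the WT mice carried a Cre transgene or received the inducing agent given to the mice with the deletion. No test was run, because the 3 libraries form 1 group, and every value describes these libraries and no others.

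LK cells hold the committed progenitors of the myeloid, erythroid, and megakaryocytic lineages along with a small number of stem cells. Granulocyte progenitors are known for transcribing the proteases and the peroxidase that will fill the primary granules, among them *Mpo* and *Elane*, before the genes of the later, secondary granules are turned on. Erythroid and megakaryocytic progenitors depend on the transcription factor *Gata1*, and erythroid progenitors also on *Klf1*, while *Gata2* and *Cd34* are associated with earlier progenitors. The proportions of these cells in the fraction set the RNA that a bulk library measures, and in such a library fewer cells of a type and less RNA per cell cannot be told apart.

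The total counts were 19208274 in WT_1, 16412318 in WT_2, and 16310456 in WT_3, and the 10 genes with the most reads took 11.1% to 12.4% of them. A gene was taken as detected with at least 10 counts in every library, which 13120 of the 55291 genes in the table reached, while 28723 genes had no count in any of the 3. WT_1 stood apart at low counts. It was the deepest library, yet it had 18630 genes with at least 1 count, against 22727 in WT_2 and 23759 in WT_3. Exactly 3 counts were found for 215 genes in WT_1, 1104 in WT_2, and 1137 in WT_3. Among genes whose mean count in the other 2 libraries was 10 to 20, the share with no count was 19.8% in WT_1, 3.89% in WT_2, and 2.32% in WT_3. Between 100 and 300 counts no gene was missing from any library. Means over the 3 libraries are therefore less sure for genes with low counts, and the part of this gap in the spread of genes near the limit of 100 was not tested.

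**Figure D1:**
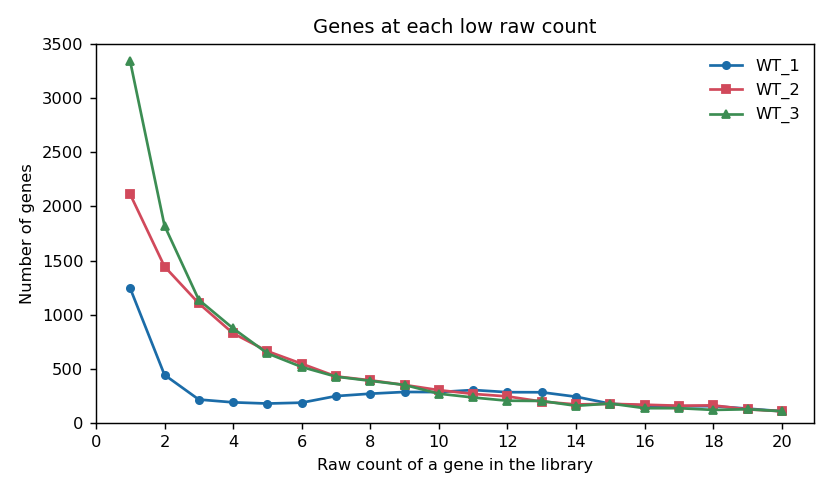
Number of genes (y axis) at each raw count from 1 to 20 (x axis) in each of the 3 WT libraries. WT_1 lies below the other libraries from 1 to 9 counts, with 215 genes at 3 counts against 1104 and 1137.

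Levels of different genes were compared per length. Counts were divided by the length of the merged exons of the gene and scaled to a sum of 1000000 over nuclear genes other than ribosomal RNA, a level of the kind known as TPM and called so below. The gene highest per length was *Rn7sk*, the small nuclear RNA that holds back transcription elongation, at 109448 ± 29111 TPM (mean ± SD, n = 3, as in all such values below). It was followed by *S100a9* and *S100a8*, which encode the 2 chains of calprotectin, the main cytosolic protein of neutrophils. *S100a9* (chr3:90692632-90695721, build mm10, as all positions given) stood at 82039 ± 15076 TPM and its neighbour *S100a8* (chr3:90668978-90670035) at 46344 ± 11252 TPM. The secondary granule genes *Ngp*, *Camp*, *Ltf*, and *Lcn2* were also among the 20 genes highest per length, at 32954, 17614, 7904, and 4456 TPM, together with *Chil3*, at 7174 TPM, and the lysozyme gene *Lyz2*, at 9781 TPM. All 8 neutrophil genes had their highest level in WT_2. Of the primary granule genes, 3 reached the same list, *Mpo*, *Elane*, and *Prtn3*, at 7822 ± 588, 7481 ± 604, and 3119 ± 158 TPM. *Prg2*, which encodes the major basic protein of eosinophil granules, stood at 5917 ± 1709 TPM. The rest of the 20 were the actin gene *Actb* (8934 TPM), the actin-sequestering *Tmsb4x* (4827 TPM), the GTPase regulator *Arhgdib* (2759 TPM), the linker histone gene *H1f5* (2765 TPM), *Rmrp* (19823 TPM), the RNA of a ribonuclease that processes ribosomal RNA, and the annotated small RNAs *Gm23935* (33738 TPM) and *Mir6236* (3297 TPM).

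**Figure D2:**
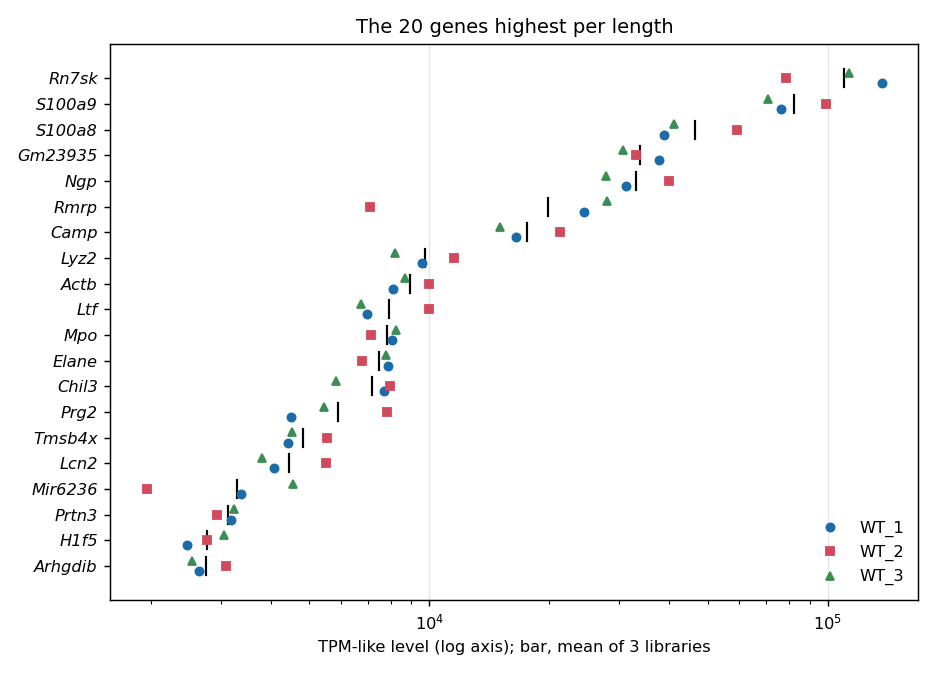
TPM (x axis, log scale) of the 20 genes highest per length in the 3 WT libraries, 1 symbol per library, with a bar at the mean of the 3. *Rn7sk* leads at a mean of 109448 TPM, and the neutrophil genes *S100a9*, *S100a8*, *Ngp*, and *Camp* follow among the first 7, each highest in WT_2.

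By number of reads the order was different, since long transcripts collect more reads. The 10 genes with the most reads were the ribosomal RNA features *CT010467.2* and *CT010467.1*, *S100a9*, *Ngp*, *Rn7sk*, *S100a8*, *Ltf*, *Mpo*, *Actb*, and *Camp*. The normalized count, which is the count divided by the library size after TMM scaling and multiplied by the mean library size, was 267861, 344757, and 237518 for *S100a9* in WT_1, WT_2, and WT_3, or 1.56%, 1.96%, and 1.39% of all reads. *Mpo* had normalized counts of 185957, 163097, and 181607, or 1.08%, 0.925%, and 1.06% of reads. These 2 genes thus went in opposite directions in WT_2, by less than 1.5-fold in each case. Protein-coding nuclear genes took 93.6% ± 0.974 of the counts (SD, n = 3), ribosomal RNA 2.61% ± 0.479, and replication-dependent histone genes, whose transcripts lack a poly(A) tail, 1.21% ± 0.0587. Of the mitochondrial protein genes, *mt-Co1* had 38993, 35681, and 44887 normalized counts, while *mt-Co2*, *mt-Co3*, and *mt-Atp6* were listed at 0 in every WT library. These 4 genes are named because of their values.

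The 6 genes taken as markers of LK cells were detected in every library. *Kit* (chr5:75574916-75656722) had 6251, 5693, and 5986 normalized counts in WT_1, WT_2, and WT_3, and its 3 values lay within 1.1-fold of each other. Its level of 102 ± 4.84 TPM put it at rank 1128 of all genes per length. *Cd34*, a sialomucin of stem and progenitor cells, had 2409, 2424, and 2590 normalized counts and 51.4 TPM. *Elane*, the gene of neutrophil elastase, had 52132, 44460, and 49298. *Gata2*, a transcription factor of stem cells, early progenitors, and mast cells, had 1033, 724, and 1049. *Gata1* (chrX:7959260-7978071), the main factor of the erythroid and megakaryocytic lineages, had 1016, 472, and 1054, and WT_2 was the only one of the 3 libraries with less than 1000. Of the 6, *Gata1* alone differed by more than 1.5-fold between the highest and the lowest library, as did 15.2% of the 9768 genes whose normalized counts averaged at least 100, the limit used below for all statements on the spread.

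Markers of 13 kinds of blood and marrow cells were then summed per library to show which lineage programs the fraction contained. The late neutrophil list of 21 genes summed to 198490, 265244, and 186644 TPM in WT_1, WT_2, and WT_3, and the granulocyte progenitor list of 18 genes to 29663, 27233, and 30230 TPM. The late neutrophil list took 81.2% ± 2.96 of the sum over all 13 lists (SD, n = 3) and the granulocyte progenitor list 11.1% ± 2.17. In WT_2 the progenitor list took 8.66%, against 12.1% in WT_1 and 12.7% in WT_3. Among the granulocyte progenitor genes, *Mpo*, *Elane*, and *Prtn3* were followed by *Ctsg*, the gene of cathepsin G, at 2536 ± 103 TPM, and *Calr*, which encodes a chaperone of the endoplasmic reticulum, at 1651 ± 133 TPM. None of the 18 progenitor genes varied by more than 1.5-fold between libraries, beside 15.2% of all 9768 genes. All but *Ctsc* had a mean above 1000 normalized counts. At such levels the share was also small, 5.01% of genes from 1000 to 3000 and 3.72% above 3000. The median ratio of the highest to the lowest library was 1.13 in the progenitor list, against 1.22 over all 9768 genes. The late neutrophil genes were less even, with a median ratio of 1.5. They included genes of mature cells at lower levels, such as the receptor gene *Cxcr2*, at 76.9 ± 21.8 TPM, and the gelatinase gene *Mmp9*, at 542 ± 187 TPM.

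The eosinophil list came next, at 6280, 11000, and 7772 TPM in WT_1, WT_2, and WT_3, or 3.11% of the 13 lists against 1.80% for the erythroid list. The order of these 2 lists turned without correction for length, to 2.72% and 3.67%, and without the highest gene of each list, to 1.45% and 2.43%. *Prg2* made up most of it, followed by the eosinophil peroxidase gene *Epx* (677 TPM), and the ribonuclease genes *Ear6* (543 TPM), *Ear1* (485 TPM), and *Ear2* (369 TPM). The Ear genes are near-identical copies of each other, and the way reads were shared between them is uncertain. The basophil and mast cell list stood far lower, at 412, 558, and 371 TPM. It was led by *Hdc*, the enzyme that makes histamine (127 TPM), the basophil protease genes *Prss34* (118 TPM) and *Mcpt8* (89.0 TPM), the carboxypeptidase gene *Cpa3* (58.0 TPM), and the IgE receptor gene *Fcer1a* (33.8 TPM). The connective tissue and mucosal mast cell proteases *Mcpt1*, *Mcpt4*, *Tpsb2*, and *Tpsab1* had no count in any of the 3 libraries, which allows up to 3 counts, or 0.184 CPM (counts per 1000000 reads), in WT_3. Monocyte and macrophage genes summed to 899.8, 964, and 936 TPM, with *Mpeg1*, *F13a1*, *Lgals3*, *Vcam1*, and *Ctss* highest, at 153, 142, 141, 78.6, and 58.6 TPM. Dendritic cell genes summed to 369.6, 367, and 371 TPM, most of it from *Cd74* (196 TPM) and the class II genes *H2-Ab1*, *H2-Eb1*, and *H2-Aa* (52.0, 44.8, and 38.4 TPM), which other antigen-presenting cells also express. *Ly6d* was next, at 10.5 TPM. *Siglech*, a marker of plasmacytoid dendritic cells, had 1, 48, and 37 raw counts in WT_1, WT_2, and WT_3.

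**Figure D3:**
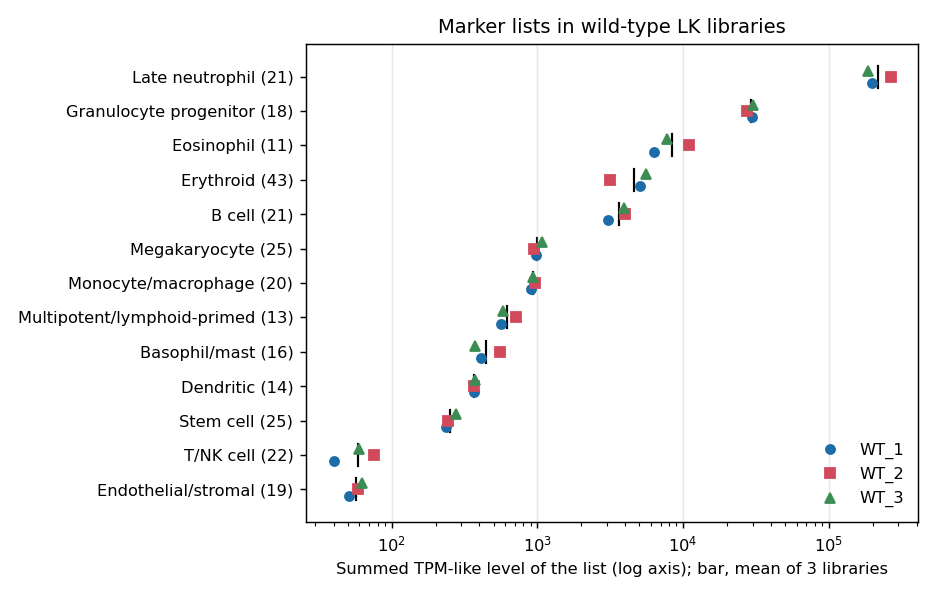
Summed TPM (x axis, log scale) of each of 13 marker lists in the 3 WT libraries, 1 symbol per library, with a bar at the mean and the number of genes in parentheses. The late neutrophil list leads in every library and the erythroid list is lowest in WT_2, at 3168 TPM.

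The erythroid list of 43 genes in the table summed to 5084, 3168, and 5519 TPM in WT_1, WT_2, and WT_3, and WT_2 lay below both others. Its share of the 13 lists was 2.07%, 1.01%, and 2.32% in the same order. The genes highest per length were the beta-globin gene *Hbb-bs*, at 731 ± 62.0 TPM, the carbonic anhydrase genes *Car2* and *Car1*, at 643 ± 278 and 606 ± 247 TPM, *Tmem14c*, which encodes a mitochondrial protein of heme synthesis, at 344 ± 64.2 TPM, and the water channel gene *Aqp1*, at 234 ± 105 TPM. All globin genes together took 0.0327% ± 0.00242 of the counts (SD, n = 3). The alpha-globin genes *Hba-a1* and *Hba-a2* are copies of each other, and their split is uncertain. *Icam4* was listed at 0 in every library, and its annotated exons overlap those of *Gm47079*. The megakaryocyte list of 25 genes summed to 985, 948, and 1068 TPM. *Fli1*, a factor shared with other blood cells (224 TPM), and *Cd9* (214 TPM) led it, followed by *Plek* (92.3 TPM), the cofactor gene *Zfpm1* (79.5 TPM), and the platelet factor gene *Pf4* (64.6 TPM). Genes of late megakaryocytes were low: *Gp1ba*, which encodes a chain of the von Willebrand factor receptor, had 86, 80, and 72 raw counts, and *Gp6*, the collagen receptor gene, had 0, 2, and 4.

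Stem cell genes took 0.0966% ± 0.0191 of the summed lists, and 0.467% without correction for length. *Erg*, *Eng*, *Gata2*, and *Angpt1* were among the highest, at 68.2, 40.3, 26.3, and 19.8 TPM, and 12 of the 25 genes were over the limit. Several genes that define stem cells by surface phenotype were near the lower end of the counts. *Procr*, the endothelial protein C receptor, had 7, 27, and 30 raw counts in WT_1, WT_2, and WT_3. *Slamf1* had 27, 21, and 32, and *Hoxb5*, a transcription factor gene of long-term stem cells, had 0, 1, and 3. *Procr* was low in WT_1, the library with few low counts, whereas *Slamf1* was not, and the part of that gap in the values of *Procr* was not tested. The genes *Procr*, *Slamf1*, and *Hoxb5* are named because of their low counts. The list of multipotent and lymphoid-primed progenitors summed to 565, 708, and 579 TPM, and among the highest were *Cd48* (102 TPM), *Lsp1* (92.5 TPM), *Dntt*, the terminal transferase of early lymphoid cells (75.9 TPM), and *Cd34*. The cytokine receptor gene *Flt3*, named here after its value was seen, had 548, 729, and 548 normalized counts.

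Markers of lymphoid and stromal cells were also summed, and the B-cell list holds genes of early as well as mature B cells. Which cells of the fraction the RNA of these lists came from was not tested. The B-cell list summed to 3048, 3963, and 3941 TPM, and the immunoglobulin genes *Igkc* (2519 TPM) and *Ighm* (777 TPM) made up most of it, followed by *Jchain* (117 TPM), *Cd79b* (47.2 TPM), and *Iglc2* (30.5 TPM). The T and NK cell list summed to 40.1, 75.7, and 59.7 TPM. *Ncr1*, *Lck*, *Thy1*, *Cd3d*, and *Klrk1* led it, at 14.5, 7.57, 4.52, 3.94, and 3.16 TPM, and its defining gene *Cd3e* had 0, 10, and 4 raw counts in WT_1, WT_2, and WT_3. The endothelial and stromal list summed to 51.3, 58.3, and 62.4 TPM, with *Pecam1* (22.1 TPM), which blood cells also express, and *Col1a1* (10.1 TPM), *Pdgfrb* (5.76 TPM), *Sparc* (3.96 TPM), and *Cxcl12* (3.85 TPM) highest, while *Cdh5*, the cadherin gene of endothelium, had 7, 4, and 5 raw counts. The share of these lists was 1.39% ± 0.236, 0.0218% ± 0.00482, and 0.0219% ± 0.00394.

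Genes of surface antigens that are used to mark blood lineages were present in the RNA. Of the 7 genes in this list, 5 were over the limit. *Ly6c2* stood at 716 ± 38.4 TPM, *Ly6g*, a marker of neutrophils, at 334 ± 88.8 TPM, and *Itgam*, the alpha chain of Mac-1, at 115 ± 22.6 TPM. *Ptprc*, the gene of CD45, stood at 71.8 TPM. CD45 is carried by blood cells in general, progenitors included, and counts per gene do not separate its forms. *Cd5* was at 1.49 ± 0.602 TPM and *Ly6c1*, a near-identical copy of *Ly6c2*, at 0.725 ± 0.413 TPM. These are levels of RNA over the whole fraction, and the surface proteins were not measured in these files.

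Of 177 transcription factor genes, 170 were detected in every library. The highest mean level per length was that of *Fos*, at 566 ± 293 TPM, and with *Jun* (308 ± 111 TPM), *Klf2* (255 ± 103 TPM), and *Junb* (167 ± 35.8 TPM) the immediate-early genes held 4 of the first 15 places. These genes differed widely between the mice. *Cebpe*, which drives the late steps of granulocyte differentiation, had the mean nearest to that of *Fos*, at 560.3 ± 37.0 TPM, and the order of these 2 genes is not settled, since *Fos* was higher in WT_1 and WT_3 and lower in WT_2. The factor gene *Spi1*, which encodes PU.1, stood at 262 ± 24.7 TPM. *Ikzf1*, a factor of lymphoid and myeloid progenitors, stood at 269 ± 16.5 TPM. *Lmo2* and *Fli1*, which act in stem cells and in the erythroid and megakaryocytic branches, stood at 233 ± 37.3 and 224 ± 14.3 TPM, a difference smaller than the SD of *Lmo2*. *Lyl1*, a relative of *Tal1*, stood at 196 ± 7.95 TPM and *Nfe2*, a factor of megakaryocytes and red cells, at 188 ± 8.34 TPM, again closer to each other than the SD. The stress response factor *Atf4* stood at 221 ± 20.8 TPM, *Xbp1*, the factor of the unfolded protein response, at 167 ± 18.8 TPM, the growth regulator *Myc* at 193 ± 35.7 TPM, and *Myb*, needed by definitive progenitors, at 163 ± 18.1 TPM. Among the 15, *Fos*, *Jun*, *Klf2*, and *Junb* had a ratio of the highest to the lowest library over 1.5, as did 15.2% of all genes. The other 11 stayed at or below 1.41, the ratio of *Myc*.

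Of 151 surface receptor genes, 143 were detected in every library. *Cd24a*, a small glycoprotein of many immature blood cells, was highest at 812 ± 26.8 TPM and was even between mice, with 13914, 13644, and 13979 normalized counts in WT_1, WT_2, and WT_3. *Ly6c2*, the integrin beta chain *Itgb2* (657 TPM), the shared Fc receptor chain *Fcer1g* (459 TPM), and the chemokine receptor *Cxcr4* (459 TPM), which holds progenitors in the marrow, came next. The first 20 also contained the tetraspanins *Cd53* (408 TPM) and *Cd9*, the sialomucin *Spn* (399 TPM), the adhesion receptors *Cd44* (254 TPM) and *Itgb1* (177 TPM), and both sides of an inhibitory pair, *Cd47* (383 TPM) and its receptor *Sirpa* (186 TPM). Cytokine receptors among them were *Ifngr1* (270.1 TPM), *Tnfrsf1a* (180.0 TPM), and *Csf3r*, the receptor for granulocyte colony-stimulating factor (158 TPM). The others were *Ly6e* (361 TPM), *Cd52* (359.9 TPM), *Fcgr3* (337 TPM), *Clec12a* (259 TPM), and the transferrin receptor gene *Tfrc* (182 TPM). The order within the list is often not settled by these libraries, since neighbours such as *Fcer1g* and *Cxcr4* differed by less than their SD. Of these 20, *Cd52* and *Tfrc* were the ones that differed by more than 1.5-fold, beside 15.2% of all genes. *Cd52* was highest in WT_2, with 2228, 3718, and 2524 normalized counts, and *Tfrc* was lowest there, with 8741, 4753, and 8839.

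Genes of cell division were expressed at high and even levels. All 28 genes of DNA replication and all 28 genes of mitosis were over the limit of 100 normalized counts. The helicase subunit genes *Mcm6*, *Mcm5*, *Mcm3*, and *Mcm4* and the ribonucleotide reductase gene *Rrm2* were highest in the first list, at 318, 312, 272, 235, and 306 TPM. In the second list the order was *Top2a*, *Mki67*, *Smc4*, *Ccnb2*, and *Cdc20*, at 375, 296, 277, 242, and 202 TPM. *Top2a*, the topoisomerase of dividing cells, had 22192, 22505, and 22286 normalized counts in WT_1, WT_2, and WT_3. The cyclin gene *Ccne1* was the only one of the 56 genes over 1.5-fold, beside 15.2% of all genes, at 1042, 549, and 939.6. Among the inhibitors of cyclin-dependent kinases, *Cdkn2d*, *Cdkn2c*, and *Cdkn1b* were highest, at 127, 77.2, and 45.1 TPM. *Cdkn1a* and *Cdkn1c* stood at 7.37 and 0.867 TPM, *Cdkn2a* had 0, 0, and 3 raw counts, and *Cdkn2b* had none. Interferon-induced genes were low, with *Bst2* first, at 55.9 ± 2.19 TPM, followed by *Trim30a*, *Eif2ak2*, and *Ifit2*, at 34.2, 27.3, and 25.9 TPM. Of their 18 genes over the count limit, 2 were above 1.5-fold (11.1%), beside 15.2% of all genes.

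The chromatin genes at the centre of the study were all expressed in WT cells apart from *Asxl3*. *Asxl1*, the scaffold of a deubiquitinase complex, had 2489, 3028, and 2711 normalized counts in WT_1, WT_2, and WT_3 and 55.8 ± 5.79 TPM, and its partner *Bap1* had 1976, 1398, and 1608 normalized counts. *Kdm6b*, which removes methyl groups from lysine 27 of histone H3, had 2095, 2331, and 1834 normalized counts and 45.4 ± 4.68 TPM, close to its X-linked relative *Kdm6a*, at 37.8 ± 2.04 TPM. The subunits of the opposing methyltransferase PRC2 were *Ezh2* (66.5 TPM), *Suz12* (127 TPM), *Eed* (42.4 TPM), *Rbbp4* (138 TPM), *Rbbp7* (196 TPM), and *Jarid2* (33.8 TPM). *Ezh1*, the alternative catalytic subunit, stood at 10.9 TPM and *Asxl2* at 17.9 TPM. *Asxl3* had 1 count in WT_2 and none in the other libraries. None of the 12 genes over the count limit varied by more than 1.5-fold, beside 15.2% of all genes, and *Bap1* had the largest ratio, 1.41. The share was 5.01% of genes with a mean from 1000 to 3000, where *Asxl1*, *Bap1*, and *Kdm6b* lie. The annotated exons of *Kdm6b* overlap those of its antisense gene *Kdm6bos*, and the strand setting of the counting is not known.

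The spread between the 3 mice was described with the 9768 genes over this limit. The highest library exceeded the lowest by more than 1.5-fold for 1482 of them (15.2%) and by more than 2-fold for 380, while 1608 genes differed by less than 1.1-fold. The share over 1.5-fold depended on the level, and it was 38.7% of genes with a mean from 100 to 300, 12.5% from 300 to 1000, 5.01% from 1000 to 3000, and 3.72% above 3000. Most of the spread involved WT_2. Between WT_1 and WT_3, 484 genes differed by more than 1.5-fold, against 746 between WT_2 and WT_3 and 1042 between WT_1 and WT_2. A gene was called high or low in 1 library when it differed from both others by more than 1.5-fold in the same direction. In WT_2, 294 genes were low (3.01%) and 138 were high (1.41%). In WT_1, 160 genes were low (1.64%) and 84 were high (0.86%), and in WT_3, 73 genes were low (0.747%) and 41 were high (0.42%). The marker lists were chosen with earlier results of the series known. The median log2 deviation over all genes was -0.01 in WT_1, -0.01 in WT_2, and 0.02 in WT_3.

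**Figure D4:**
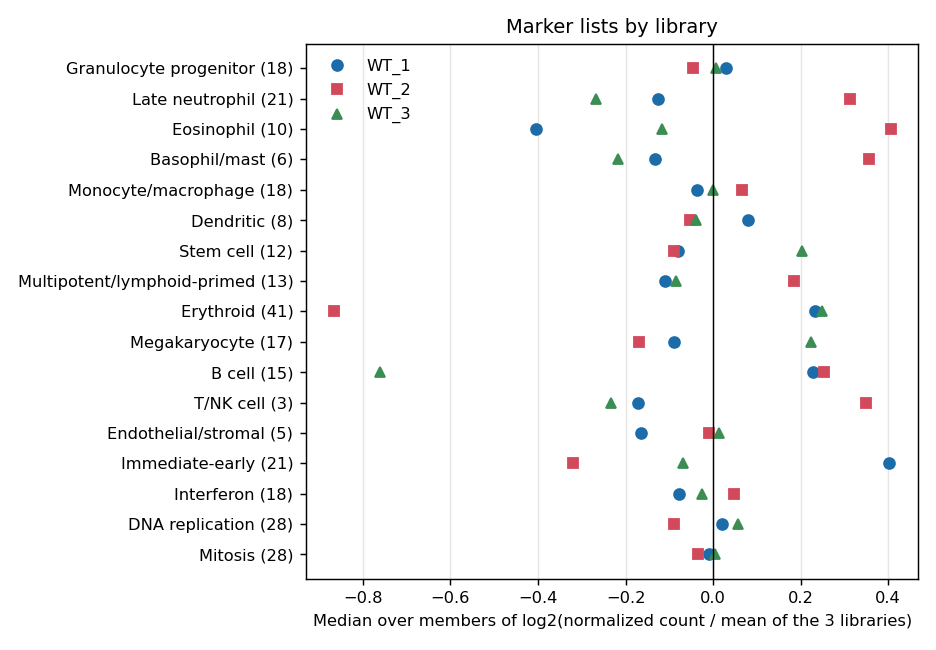
Median over the members of each list of log2(normalized count / mean of the 3 libraries) on the x axis, 1 symbol per library, with the number of members over the count limit in parentheses. The erythroid list lies at -0.87 in WT_2 and the B-cell list at -0.76 in WT_3, while the mitosis and granulocyte progenitor lists stay within 0.05 of 0.

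Erythroid genes were the list with the most genes low in a single library. Of the 43 in the table, 41 had a mean of at least 100, and 28 of these were low in WT_2, beside 3.01% of all genes. Between WT_1 and WT_3, without WT_2, none of the 41 differed by more than 1.5-fold, beside 484 of all 9768 genes. Without WT_1, the number of the 41 with WT_2 below WT_3 by that fold was 29. The median log2 deviation from the mean of the 3 libraries was -0.87 in WT_2, against 0.23 in WT_1 and 0.25 in WT_3, and over all genes it was -0.01 in WT_2.

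*Klf1* (chr8:84901928-84905291), a zinc finger factor that switches on most genes of the red cell, had 1279, 480.0, and 1372 normalized counts in WT_1, WT_2, and WT_3. *Epor*, the receptor for erythropoietin, had 364, 150.3, and 418. *Kel*, the gene of a blood group antigen, had 487, 139.6, and 396, the largest ratio of the list, 3.49-fold. In each of these genes WT_2 stood alone and the other mice lay close together. The same was seen in the genes of the Rh complex, with 1108, 373, and 1124 for *Rhag* and 1343, 442, and 1131 for *Rhd*. Of the membrane skeleton, *Epb42* had 406, 125, and 334. *Ank1*, which encodes ankyrin, had 2921, 945, and 2671. WT_2 was about as far below the others in the anion exchanger gene *Slc4a1*, with 1594, 546, and 1386. Among the enzymes of heme synthesis the gap varied, and *Cpox* had 2979, 1366, and 3127. The gap was smaller in *Alad* and *Urod*. *Alad* had 1135, 572, and 1082 and *Urod* 1262, 826, and 1313, so that *Urod* was only just over the 1.5-fold limit in WT_2. *Car2*, the highest of the low genes, had 12795, 5220, and 12800.

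The other 13 of the 41 genes were not low in WT_2. None of the 4 globin genes over the limit was lowest in WT_2 by 1.5-fold. They had 3471, 3721, and 3920 normalized counts for *Hbb-bs*, 968, 904, and 1065 for *Hbb-bt*, 319, 316, and 304 for *Hba-a2*, and 564, 654, and 782 for *Hba-a1*. *Alas2*, which starts heme synthesis in red cells, had 334, 281, and 325, and its exons overlap those of *Apex2*. The mitochondrial iron importer *Slc25a37* had 1489, 1312, and 1664. *Bpgm*, an enzyme of red cell glycolysis, had 438, 462, and 338 and was lowest in WT_3. *Nfe2*, which megakaryocytes also use, had 3638, 3921, and 3574, and *Epb41*, a skeleton gene that many cells express, had 4277, 3854, and 4235. *Ppox*, *Tmem14c*, and *Cd36* were lowest in WT_2 without reaching the limit, and *Fech* had 1296, 1119, and 1743. Below the count limit, *Trim58* had 118, 46.2, and 104. The erythroid genes outside the 5 highest per length are named here with their values known.

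**Figure D5:**
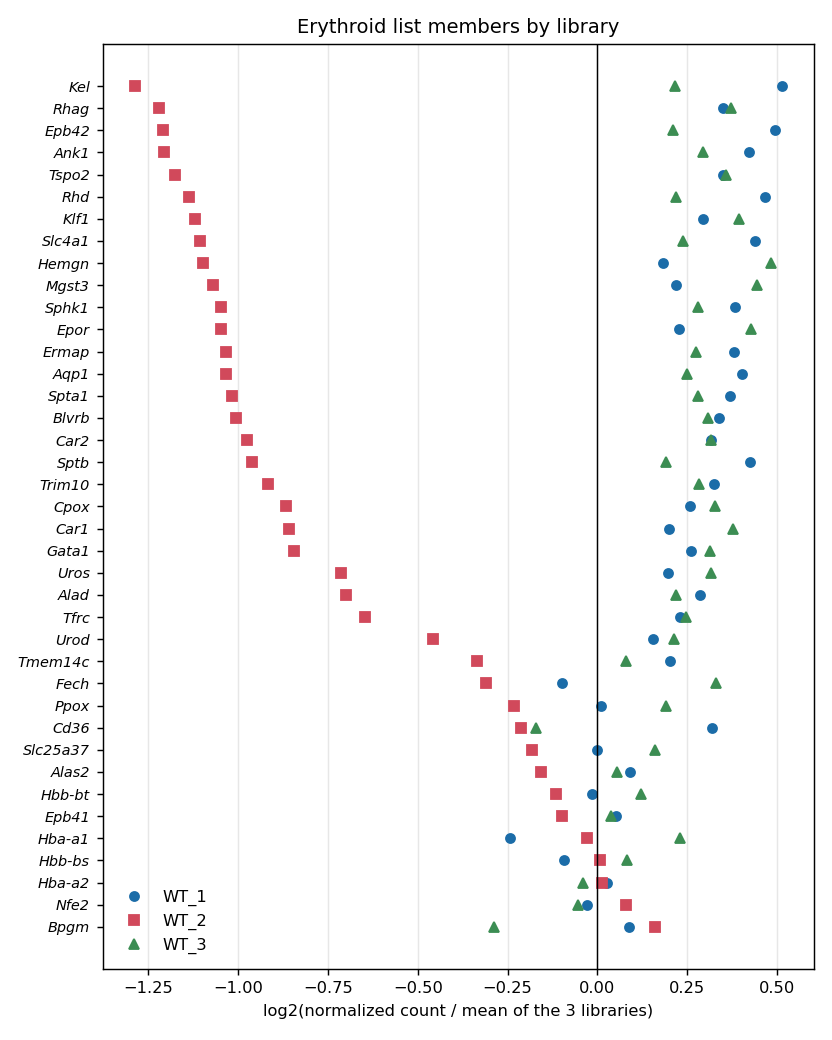
log2(normalized count / mean of the 3 libraries) on the x axis for 39 of the 41 erythroid genes over the limit, ordered by WT_2, 1 symbol per library. WT_2 lies to the left of both other libraries for 34 of them, from *Kel* downward, and the 5 genes at the bottom, *Hba-a1*, *Hbb-bs*, *Hba-a2*, *Nfe2*, and *Bpgm*, are the exceptions. Of all 9768 genes over the limit, 3880 were lowest in WT_2.

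Of the 17 megakaryocyte genes over the limit 6 were low in WT_2, beside 3.01% of all genes, and the median log2 deviation of the list there was -0.17. Without WT_2, 1 of the 17, *Gp5*, differed by more than 1.5-fold, beside 484 of all 9768 genes. *Gfi1b*, a repressor needed in the erythroid and megakaryocytic branches, had 869.7, 275, and 1028 normalized counts in WT_1, WT_2, and WT_3. *Tal1*, a factor outside the list that works in one complex with *Gata1*, had 1645, 980.4, and 1973. *Zfpm1*, the partner of *Gata1*, had 2184, 986, and 2335. WT_2 was again below both others by more than 1.5-fold in all 3. Of the genes of platelets, *Pf4* had 369.5, 125, and 425, *Vwf* 979.8, 483, and 931, and the integrin gene *Itga2b* 1090, 670.1, and 1078. The sixth was *Rab27b*, with 162, 73.0, and 217. Most genes of the list were not low in WT_2. The integrin gene *Itgb3* had 1152, 1428, and 1271 and *Fli1* 5013, 5571, and 4874. The 8 megakaryocyte genes below the limit went in several directions. *Tubb1* had 34.9, 8.59, and 19.9, and *Treml1*, *Ppbp*, *Gp1bb*, and *Gp9* were also lowest in WT_2. *Clec1b* had 3.58, 37.6, and 24.1 and *Gp1ba* 77.0, 85.9, and 75.6, both highest in WT_2, and *Gp6* had few counts in any library. *Kit* and *Cd34* stayed within 1.1-fold in all 3 libraries, as given above.

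Across the lists of regulators, 31 of 152 transcription factor genes and 26 of 124 surface receptor genes over the limit exceeded 1.5-fold, beside 15.2% of all genes. In each list 11 genes were low in WT_2, beside 3.01% of all genes. The factors were *Gata1*, *Tal1*, *Gfi1b*, *Zfpm1*, *Klf1*, *Nfia*, *Sox6*, and *E2f4* along with the immediate-early genes *Fos*, *Klf2*, and *Nr4a1*. *Nfia*, a factor of the erythroid branch, had 1141, 512, and 1115 normalized counts in WT_1, WT_2, and WT_3, *Sox6* 251, 150.3, and 299, and *E2f4*, a partner of the retinoblastoma family, 2199, 1435, and 2152. Most of the 11 receptors belong to red cells or to iron uptake, and they included *Tfr2*, the second transferrin receptor, with 880.5, 478, and 956. *Eng* and *Tgfbr3*, both of which bind ligands of the TGF-beta family, were also among them, with 1269, 742, and 1221 for *Eng* and 428, 253, and 497 for *Tgfbr3*. Among the factors high in WT_2 were *Irf1* (758, 1217, and 789.5) and *Lef1* (144, 306, and 106). The receptors high in WT_2 were *Tlr7*, *Il5ra*, *Itgax*, and *Fpr1*, the receptor for formyl peptides, with 259, 599, and 354.

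Many erythroid genes are known targets of GATA factors, which bind the letters GATA in DNA, and 4 promoters of the erythroid block are shown here for that motif. They belong to the genes low in WT_2 that have 1 start in the RefSeq table (build GRCm38.p6), a window of 250 bases before the start that no exon of the GENCODE annotation touches, and a match to AGATAA or TGATAA on either strand. Sequences run 5′ to 3′ along the strand of the gene, and capitals mark the match, which reads TTATCT or TTATCA where it lies on the other strand.
*Epor* (chr9:21963577-21963826, minus strand): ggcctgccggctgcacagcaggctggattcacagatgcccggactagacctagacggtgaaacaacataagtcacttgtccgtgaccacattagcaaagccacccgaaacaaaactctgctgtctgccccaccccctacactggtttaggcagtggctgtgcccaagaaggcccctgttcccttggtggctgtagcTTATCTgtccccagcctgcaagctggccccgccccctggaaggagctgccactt
*Rhd* (chr4:134864286-134864535, plus strand): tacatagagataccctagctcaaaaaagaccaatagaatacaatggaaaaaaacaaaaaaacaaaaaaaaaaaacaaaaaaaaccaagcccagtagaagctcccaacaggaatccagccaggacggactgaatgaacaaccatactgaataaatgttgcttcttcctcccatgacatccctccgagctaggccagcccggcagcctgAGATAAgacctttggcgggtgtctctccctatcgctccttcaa
*Cpox* (chr16:58669958-58670207, plus strand): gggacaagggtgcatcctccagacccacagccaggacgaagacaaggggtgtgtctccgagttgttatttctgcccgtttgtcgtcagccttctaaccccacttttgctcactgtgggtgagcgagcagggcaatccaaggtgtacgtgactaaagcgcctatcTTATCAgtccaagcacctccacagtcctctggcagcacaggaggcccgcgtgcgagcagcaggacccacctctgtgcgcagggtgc
*Trim10* (chr17:36869324-36869573, plus strand): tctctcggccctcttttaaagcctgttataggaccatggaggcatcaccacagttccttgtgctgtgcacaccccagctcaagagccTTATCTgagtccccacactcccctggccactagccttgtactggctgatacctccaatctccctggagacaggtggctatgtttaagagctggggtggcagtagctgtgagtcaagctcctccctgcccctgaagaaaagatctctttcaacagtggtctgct
The first base of the match lies 54 bases before the start in *Epor*, 43 in *Rhd*, 86 in *Cpox*, and 163 in *Trim10*. Both strings were searched on both strands, and a gene was counted once where it held both, whether or not they overlapped. AGATAA or TGATAA was present in the window of 17 of 33 erythroid genes with a RefSeq entry (51.5%), in 12 of the 21 that were low in WT_2 (57.1%), and in 18.8% of all 27025 genes with a RefSeq window. It was in none of 17 granulocyte progenitor genes and none of 12 B-cell genes, in 4 of 19 late neutrophil genes (21.1%), and in 3 of 9 eosinophil genes (33.3%). CCACACCC, a letter string bound by *Klf1*, was in the window of 1 of the 33 erythroid genes (3.03%) and of 3.68% of all genes. It was also in 2 of 17 granulocyte progenitor genes (11.8%) and 1 of 19 late neutrophil genes (5.26%). Of 9 eosinophil genes 1 held it (11.1%), and none of 12 B-cell genes did. GAGGAAGT, a string of the kind PU.1 binds, was in 4 of 17 granulocyte progenitor genes (23.5%), namely *Mpo*, *Elane*, *Prtn3*, and *Ctsc*. It was also in 3 of 19 late neutrophil genes (15.8%) and in 2.79% of all genes. None of the erythroid, B-cell, or eosinophil genes held it. Some windows of the larger counts lie within annotated exons. A match is a run of letters only, and binding was not measured in these files.

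Other groups of genes were also low in WT_2. *Rmrp* had 46255, 13291, and 50460 normalized counts in WT_1, WT_2, and WT_3, and *Rpph1*, the RNA of ribonuclease P, had 2801, 1114, and 2193. *Rn7sk* was lowest in WT_2 without reaching the limit, with 0.983% of the reads, against 1.77% in WT_1 and 1.41% in WT_3. Of the 15 small nuclear and nucleolar RNA genes over the limit, 8 were low in WT_2, beside 3.01% of all genes, among them *Gm25395* (241, 53.7, and 261), *Scarna6* (200.4, 60.1, and 229.9), and *Gm26448* (389, 108, and 387). *Scarna2*, the most abundant of the 15, was even, with 5531, 5292, and 5051. These RNAs are short and lack a poly(A) tail.

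Several of the 20 genes with the largest spread had their lowest value in WT_2 too. *Cldn13*, a claudin gene, had 917, 218, and 694, *Epdr1* 633, 151, and 482, and *Tspan8*, a tetraspanin gene, 254, 55.8, and 218. *Smim1*, which carries a blood group antigen of red cells, had 251, 63.4, and 191. *Gm25360* had 178, 55.8, and 248 and *Snord17* 119.9, 43.0, and 170.1, 2 more of the small RNAs. *Dclk2*, with 185, 47.2, and 78.7, was low in WT_2 and high in WT_1.

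The macrophage genes for the 3 chains of complement C1q were low in WT_2. *C1qa* had 312, 97.7, and 269.8, *C1qb* 245, 112, and 232, and *C1qc* 229, 97.7, and 289.8. *Siglec1*, a receptor of resident marrow macrophages that was not in the list, had 141, 39.7, and 138. The other 15 monocyte and macrophage genes over the limit were not low in WT_2, and the median deviation of the whole list there was 0.07. *Vcam1*, which these macrophages also express, had 5795, 4180, and 3882, and *Lgals3* was high in WT_2, with 1188, 2432, and 1576.

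Immediate-early genes, which are induced within minutes of a stimulus, were highest in WT_1 for 17 of 21 genes and lowest in WT_2 for 16. Of all 9768 genes, 3001 were highest in WT_1 and 3880 were lowest in WT_2. *Fos* had 13371, 4055, and 9002 normalized counts in WT_1, WT_2, and WT_3, and *Dusp1*, a phosphatase that ends kinase signalling, had 5428, 2182, and 3412. *Atf3* had 197, 36.5, and 98.7. In these genes the 3 mice were well apart, with WT_3 in the middle. *Zfp36*, which destabilizes the mRNA of cytokines, had 9467, 5235, and 6776, while *Ier2* and *Btg2* were nearly even, with 3971, 3430, and 3571 for *Ier2*. Of the 21 genes, 7 were high in WT_1, beside 0.86% of all genes, and 5 were low in WT_2, beside 3.01%. The median log2 deviation of the list was 0.40 in WT_1 and -0.32 in WT_2. Whether the small RNAs, the macrophage genes, or the immediate-early genes have a part in the erythroid difference was not tested.

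Mature granulocyte genes were highest in WT_2. Of the 21 late neutrophil genes 18 had their highest value there, beside 3367 of all 9768 genes. For 14 of the 21 the lowest value was in WT_3, beside 2405 of all genes. Between the highest and the lowest library 10 exceeded 1.5-fold, beside 15.2% of all genes, with a median ratio of 1.5 against 1.22, and 4 were high in WT_2, beside 1.41% of all genes. The median log2 deviation of the list in WT_2 was 0.31. Without WT_2 none of the 21 exceeded 1.5-fold, beside 484 of all 9768 genes. The collagenase gene *Mmp8* had 3852, 8383, and 4522 normalized counts in WT_1, WT_2, and WT_3, and *Mmp9* had 9324, 17708, and 10999. *Retnlg* had 3813, 5761, and 3317. *Padi4*, which citrullinates histones, had 2462, 3761, and 2339. These were the 4 high genes. *S100a8*, with 180988, 273899, and 183176, was only just below the limit, and *Il1b* went the other way, with 494, 294, and 416.

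In the eosinophil list 9 of 10 genes over the limit exceeded 1.5-fold, beside 15.2% of all genes, and 8 were highest in WT_2 and lowest in WT_1. Of all 9768 genes, 3367 were highest in WT_2 and 3483 were lowest in WT_1. *Prg2* had 25393, 43606, and 29302 normalized counts and *Epx* 9001, 15784, and 11930. *Alox15*, a lipoxygenase of eosinophils, had 646, 1576, and 784. In these genes WT_3 lay between the other mice. *Ccr3* had 116, 90.2, and 164 and *Siglecf* 705, 631, and 572, and neither was highest in WT_2. Of the 10 genes, 3 were high in WT_2, beside 1.41% of all genes. The median log2 deviation of the list was 0.41 in WT_2. Without WT_3 the number was 8. Of 6 basophil and mast cell genes over the limit, *Mcpt8* had 507, 783, and 472 and *Prss34* 875, 1419, and 575, and both were high in WT_2, where the median log2 deviation of the list was 0.36. *Hdc* was even, with 5607, 5535, and 4928. Genes of primary granules were not higher in WT_2: *Ctsg* had 17514, 16817, and 17578, and *Mpo* and *Elane* were lowest in WT_2.

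In WT_3 the genes of early B cells were low. Of the 21 B-cell genes, 15 were over the limit and 8 were low in WT_3, beside 0.747% of all genes. Without WT_1 or without WT_2 the number was 9. The median log2 deviation of the list was -0.76 in WT_3, 0.23 in WT_1, and 0.25 in WT_2. *Vpreb1* (chr16:16868403-16870843) and *Igll1* form the surrogate light chain of pre-B cells. *Vpreb1* had 237, 213, and 67.2 normalized counts in WT_1, WT_2, and WT_3, and *Igll1* had 477, 389.8, and 152. *Cd79a*, a chain of the B-cell receptor, had 401, 252, and 119. The factors *Ebf1* and *Pax5* commit progenitors to the B lineage. *Ebf1* had 430.4, 514, and 199, and *Pax5* had 401, 440.3, and 203. The adaptor gene *Blnk* had 317, 316, and 163. In these genes WT_3 was the low library, and WT_1 was the highest in all but *Ebf1* and *Pax5*.

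Of the 13 genes of multipotent and lymphoid-primed progenitors, 2 were low in WT_3, *Dntt* and *Il7r*, and the median log2 deviation of that list in WT_3 was -0.08. *Dntt* had 1154, 1591, and 718 normalized counts, and *Il7r*, the receptor for interleukin 7, had 210.3, 192, and 105. *Bach2*, a repressor of lymphoid cells, had 294, 306, and 163. *Rag1*, the recombinase gene, was high in WT_1, with 729, 386, and 273. The abundant genes of the B-cell list did not follow. *Igkc* had 8177, 9048, and 9305, *Jchain* 2277, 1720, and 1832, and *Cd79b* 472, 472, and 396. All 8 low genes had a mean below 500. Of the 6 B-cell genes below the limit, *Rag2* had 124, 62, and 44 raw counts and was lowest in WT_3, and *Ms4a1*, the gene of CD20, had 7, 50, and 42 and was lowest in WT_1.

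Immunoglobulin variable segments took 6 of the first 20 places in the ranking by spread, and a joining segment took 1 more. *Ighv7-1* had 9.84, 235, and 60.9 normalized counts in WT_1, WT_2, and WT_3, the largest ratio of all, 23.9-fold. *Igkv8-30* had 51.9, 17.2, and 321. *Ighv11-2* had 53.7, 465, and 356. The high library changed from segment to segment, and WT_1 was highest for none of the 7. WT_2 was highest for *Ighv7-1*, *Ighv11-2*, *Igkv15-103* (68.9, 370.5, and 135), and *Igkv14-126* (239.8, 983, and 803). WT_3 was highest for *Igkv8-30*, *Ighv6-3* (68.0, 83.8, and 323), and *Igkj4* (85.9, 46.2, and 181). The constant gene *Igkc* differed by 1.14-fold. Other constant genes were less even, among them *Ighm*, *Iglc2*, *Iglc1*, and *Igha*, at 2.82-fold, 2.27-fold, 2.21-fold, and 1.94-fold. *Igha* was high in WT_1, with 10829, 5570, and 6858. Of the 7 segments 5 were lowest in WT_1, and the part of its gap at low counts in them was not tested. Segments of one family resemble each other, and how reads shared by them were assigned is not known.

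The remaining genes far from both other libraries were of mixed kinds. In WT_1, *Ighm* was low, with 4606, 12991, and 11320 normalized counts in WT_1, WT_2, and WT_3. *Tlr9*, an endosomal receptor for DNA, had 30.4, 146, and 126, and *Zrsr1*, a gene of splicing, had 55.5, 175, and 162. With the segments *Ighv11-2*, *Ighv7-1*, and *Igkv14-126* these last 2 genes were the 5 furthest below both other libraries in WT_1. Genes high in WT_1 lay nearer to the others, at most 2.35-fold from the nearest. They were led by *Dclk2*, *Btf3l4* (177, 87.0, and 81.9), the chitinase gene *Chit1* (404, 194, and 198), *Smim26* (174, 68.7, and 86.1), and *Atf3*.

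In WT_3 the genes furthest above both others were *Igkv8-30*, *Igfbp5* (51.9, 53.7, and 216), *Ighv6-3*, *Cxcl12* (70.7, 143, and 401), and *Tmem267* (78.7, 84.8, and 184). *Cxcl12*, the ligand of *Cxcr4*, and *Igfbp5* are known as products of stromal cells of the marrow. Of the stromal list, *Lepr* had 13, 17, and 50 raw counts and *Adipoq* 0, 2, and 12, both highest in WT_3. *Col1a1* had 498, 434, and 378 normalized counts and was lowest there, and *Pdgfrb* had 177, 226, and 222. The genes furthest below both others in WT_3 were *Gm42047* (275, 206, and 61.9), *Vpreb1*, *Igll1*, *Cplx2* (565, 592, and 237), and *Snn* (276, 218, and 92.4). In WT_2, those furthest above were *Ighv7-1*, *Igkv15-103*, *Jph3* (100.2, 279, and 112), the claudin gene *Cldn1* (554, 1267, and 546), and *Gm44187* (204, 449.9, and 185). Most of these genes had fewer than 500 normalized counts.

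At the other end of the ranking the 3 mice were nearly equal. *Pik3c3*, a lipid kinase of autophagy and endosomes, had 975, 975, and 976 normalized counts in WT_1, WT_2, and WT_3. The chromatin remodeler gene *Chd6* had 1050, 1048, and 1050. *Kat7*, a histone acetyltransferase gene, had 3199, 3200, and 3215. The other genes among the 10 with the smallest ratio were *Tmem165*, *Hrob*, *Lsm8*, *Alg5*, *Zfp644*, *Gemin6*, and the helicase gene *Blm*, which had 1683, 1691, and 1684. Differences of this size are smaller than the counting error of the genes.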

How the data were processed

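LK cells from the marrow of WT C57BL/6 mice were profiled by bulk RNA-Seq, with 1 library per mouse. Per the labels, RNA was made into libraries with a NEB Ultra kit and read on a NextSeq, whereas the methods of the study name a stranded RiboErase kit and a HiSeq, and which is right was not settled here. The deposited table holds raw read counts per gene for all 12 libraries. The submitters' processing notes name FastQC, Trimmomatic, STAR, HTSeq, and the genome build mm10, and the methods of the study give the versions. Annotation and strand setting were not given in the sources used here.

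From the WT counts, TMM scaling and dispersions were computed with edgeR 4.0.16 in R 4.3.3. Each count was divided by the TMM-scaled size of its library and put on the scale of the average WT library, which gives the normalized count. Levels per length (TPM) used merged exons of GENCODE M21 on mm10. Of 55291 genes, 53292 matched by symbol, 406 by an older symbol, and 1593 not at all, and those without a length held 0.0415% of the counts. Genes were called high or low in 1 library at 1.5-fold from both others, if their normalized counts averaged at least 100. The ratio of the highest to the lowest library, and which library was highest, were tested on simulated data with 1 library raised. The calls of high or low themselves were not tested in this way. Promoter sequences are from RefSeq (GRCm38.p6). A count of 0 allows up to 3 counts, a limit that covers counting error only. Figures were drawn with matplotlib 3.10.9.

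The members and the 23 gene lists were chosen with earlier results of these data known. Named genes were the 6 markers of LK cells, the 20 highest per length, the 10 with the most reads, the 5 highest of each list and those at 0, the 15 highest factors and 20 highest receptors, the 20 most and 10 least variable genes, the 5 furthest in each direction per library, and the chromatin genes of the study. Others were named after their values were seen, and a few genes that the rule names are not reported here. Alternatives were other scaling, count limits, thresholds, lengths, and totals, and leaving out each library. The counts of erythroid, B-cell, and eosinophil members under these settings, and a total of protein-coding genes only, were added after seeing the data.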

Additional observations from a re-analysis of the deposited data

How the results depend on the processing

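The number of genes over 1.5-fold was 1482 with TMM scaling, 1488 with RLE size factors, and 1494 with the total count alone. It followed the limit on low counts, with 2205 genes at a mean of at least 50, 376 at a mean of at least 500, and 17100 with no limit, and it was 380 at a 2-fold threshold. Leaving out 1 library gave 477 to 1035 genes, with 477 without WT_2, 748 without WT_1, and 1035 without WT_3. The erythroid count in WT_2 was 28 under each scaling, 29 at a mean of at least 50, 21 at 500 (30 members left), 23 at 2-fold, and 28 to 29 without WT_1 or WT_3. The B-cell count in WT_3 was 8 under each scaling, 5 at 2-fold, 9 without WT_1 or WT_2, and 0 at a mean of at least 500, where 3 members were left and no member could be low since all 8 have a lower mean. Eosinophil genes high in WT_2 numbered 3, but 1 with the total count alone and 8 without WT_3. Without correction for length the share of the late neutrophil list was 67.7%, of the granulocyte progenitor list 19.8%, and of the erythroid list 3.67%. The late neutrophil list was first under all 5 other ways of computing levels. Those ways that changed only the genes in the total scale every list alike, so they could not change a share or a rank. Ranked by dispersion, 16 of the 20 and 76 of the 100 most variable genes were shared. Over all values recomputed, those above included, 42 of the main results stayed within the spread between libraries or within 1.5-fold, and 10 moved further. Of the single lists and rankings, 93 stayed and 23 moved further. The values that stayed include the shares that a change of the total could not move. WT_1 has few genes below 10 counts, and low genes cannot be compared firmly with it. No paired analysis was possible because the libraries form 1 group and nothing was compared between groups.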

Other observations

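Histone genes whose transcripts lack a poly(A) tail were among the highest genes per length. *H1f5* was followed by *H2bc3*, at 2638 ± 97.0 TPM, *H1f2*, at 2409 ± 132 TPM, *H4c12*, at 2319 ± 171 TPM, and *H1f1*, at 2210 ± 229.6 TPM. *H1f2* had 23882, 25165, and 25401 normalized counts in WT_1, WT_2, and WT_3. The 57 genes of the group took 1.18%, 1.18%, and 1.28% of the counts. Copies of a core histone resemble each other, and the split between them is uncertain. Cytosolic ribosomal protein genes took 1.22%, 1.05%, and 1.26% of the counts, lowest in WT_2 like the mitochondrial genes, with 0.687%, 0.607%, and 0.788%.

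Among long noncoding RNAs, *Malat1* had 26267, 30244, and 24499 normalized counts and *Neat1*, the scaffold of paraspeckles, 2759, 4239, and 1992, with the highest value of both in WT_2. The heat shock genes *Hspa1a* and *Hspa1b*, near-identical copies below the count limit, had 15.2, 6.44, and 81.9 and 44.7, 18.3, and 225, and WT_3 was highest for both. All genes in these paragraphs were named after their values were seen.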
